A study of Mus musculus with 6 samples.

Results

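The levels of 10 oocyte genes, *Gdf9*, *Bmp15*, *Zp1*, *Zp2*, *Zp3*, *Figla*, *Nobox*, *Oosp1*, *Nlrp5* and *Zar1*, were followed in mouse granulosa cell (GC) samples collected after cyclophosphamide (CTX) treatment. They were found by gene name among the 54532 genes of the deposited table, which held a row for each. They were chosen as genes known from the oocyte, by name, with earlier results of these data known. Their levels were read in all 6 samples as FPKM (fragments per kilobase of gene length, scaled to depth, which allows genes of different length to be compared) and stand for the amount of oocyte RNA carried in each sample.

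All mice were ICR females, 3 weeks old, that had received 5 IU of PMSG, a gonadotropin that drives follicles to the antral stage. At 22 h after PMSG, the CTX group was given a single intraperitoneal injection of 120 mg/kg CTX, an alkylating chemotherapeutic, and the PBS group was injected with PBS. GCs were collected 6 h after the injection, and each group had 3 samples that each pooled the GCs of 3 mice. For cultured GCs the methods of the study describe puncture of antral follicles with a needle, and they name no step that removed oocytes. No sample of oocytes alone was analysed here, so the levels cannot be converted into a number of oocytes.

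The mammalian oocyte grows inside the follicle, enclosed by GCs and joined to them by gap junctions that cross its coat, the zona pellucida. It secretes growth factors that act on the GCs around it and stores transcripts and proteins for the early embryo. The 10 genes are known mainly from the oocyte, and their RNA in a GC sample is commonly read as a sign of oocytes collected with the GCs. In bulk samples, fewer oocytes and less of these RNAs per oocyte cannot be told apart.

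The 10 genes include 2 transcription factors that are known to act on oocyte genes, and the windows before the start sites of 3 genes are printed to show the motifs of both. FIGLA is a basic helix-loop-helix factor known to bind E-boxes (CANNTG) before the zona pellucida genes, and NOBOX is a homeobox factor known to bind TAATTG and TAATTA. The windows hold the 250 bases before the RefSeq start on GRCm38.p6 and read 5′ to 3′ on the strand of the gene. Capitals mark the motifs, which were searched on both strands and did not overlap one another. The window of *Zp3* (chr5:135979855-135980104, plus strand) held 3 E-boxes, at 181, 134 and 55 bases before the start.
Zp3: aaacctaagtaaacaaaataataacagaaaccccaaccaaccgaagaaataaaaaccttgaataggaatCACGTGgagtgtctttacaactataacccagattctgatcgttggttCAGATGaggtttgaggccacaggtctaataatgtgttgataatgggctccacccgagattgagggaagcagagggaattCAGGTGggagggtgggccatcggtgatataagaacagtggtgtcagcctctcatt
The window of *Bmp15* (chrX:6320725-6320974, minus strand) held an E-box at 201 bases and TAATTA at 225 bases before the start.
Bmp15: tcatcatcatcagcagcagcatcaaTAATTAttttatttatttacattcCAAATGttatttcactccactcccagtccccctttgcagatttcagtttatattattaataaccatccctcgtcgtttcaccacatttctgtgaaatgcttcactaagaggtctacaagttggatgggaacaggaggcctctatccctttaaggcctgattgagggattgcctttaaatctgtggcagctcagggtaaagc
The window of *Nlrp5* at its outer start (chr7:23385639-23385888, plus strand) held E-boxes at 145 and 107 bases and TAATTA at 189 bases before the start.
Nlrp5: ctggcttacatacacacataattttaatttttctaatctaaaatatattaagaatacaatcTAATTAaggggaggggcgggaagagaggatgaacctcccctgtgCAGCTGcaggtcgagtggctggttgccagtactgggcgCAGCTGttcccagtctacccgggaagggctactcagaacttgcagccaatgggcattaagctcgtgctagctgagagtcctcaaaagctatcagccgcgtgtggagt
Windows were used for 7 of the 10 genes, with 2 for *Nlrp5*, and none for *Gdf9*, *Zp1* and *Zp2*. An E-box was found in 8 of the 8 windows and in 66.2% of all 32851 windows of this length. TAATTG or TAATTA was found in 2 of the 8 and in 11.3% of all windows. These matches describe letters and do not show binding.

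Depth was similar in all samples, with 16005869 to 18455011 reads on genes, so that 3 reads falling on 1 kb of a gene were worth 0.164 to 0.185 FPKM. CTX replicate 2 stood apart from the other libraries on the first principal component of all genes tested (46.8% of the variance), at 74.7, while the other 5 libraries lay between -26.6 and 13.2. The marker of GCs with the highest level, *Inha*, the inhibin alpha subunit, was at 8556 to 10402 FPKM in the 6 samples. Across all genes, 139 of the 14463 tested (0.961%) passed the call used here, a limma adjusted p (Benjamini-Hochberg over all genes tested) below 0.05 with a change of more than 2-fold.

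All 10 oocyte genes had reads in each of the 6 samples, *Figla* as few as 1, and their levels followed a common order. *Gdf9* had the highest level, followed by *Zp3*, *Zp2*, *Oosp1*, *Bmp15*, *Zp1*, *Zar1*, *Nlrp5*, *Nobox* and *Figla*. *Zp2* lay above *Oosp1* in 4 of 6 samples and *Oosp1* above *Bmp15* in 5 of 6, while the other neighbours kept the order in 6 of 6, so the order of these 3 genes was not settled within the spread of the samples. Among the 14463 genes tested, the mean level of *Gdf9* (19.5 FPKM) lay at the 79.1 percentile and that of *Nobox* (1.55 FPKM) at the 19.7 percentile. The ratio of *Inha* to *Gdf9* FPKM was 348 to 784, lowest in CTX replicate 3 and highest in PBS replicate 1.

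**Figure D1:**
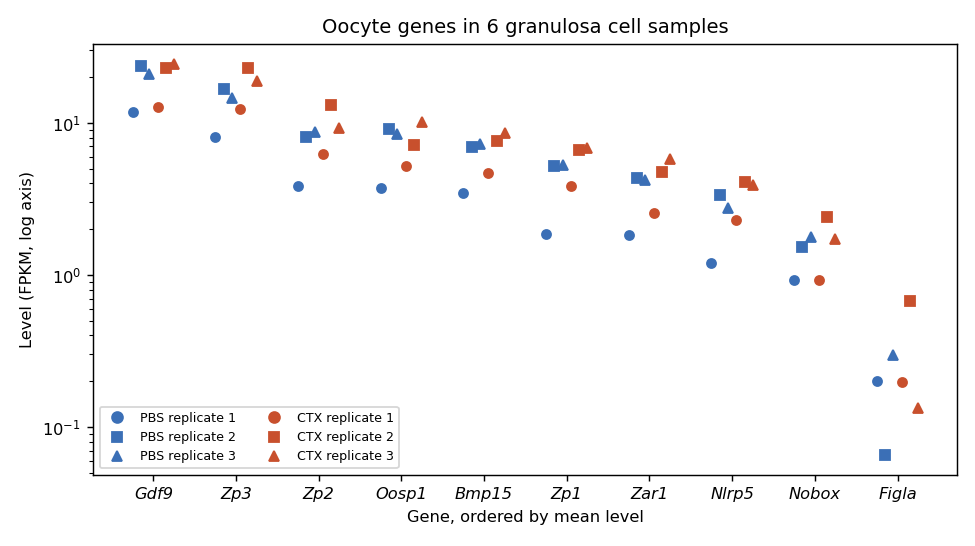
Level (FPKM, log axis) of each of the 10 oocyte genes, ordered by mean level, in the 3 PBS samples (blue) and the 3 CTX samples (red), with a circle, square or triangle for replicate 1, 2 or 3. For 9 of the 10 genes the circle is the lowest point of both groups, and the red and blue points overlap for every gene.

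The secreted ligands *Gdf9* and *Bmp15* encode growth factors of the TGF-β family through which the oocyte acts on GCs. *Gdf9* (chr11:53431023-53437904, plus strand, 3 exons in its longest model) was at 11.7, 23.7 and 21.1 FPKM in PBS replicates 1, 2 and 3 and at 12.8, 23.0 and 24.6 FPKM in CTX replicates 1, 2 and 3. Replicate 1 was the lowest sample of both groups, and the groups overlapped almost fully. All values by group are given in the order of replicates 1, 2 and 3. *Bmp15* (chrX:6314107-6320721, minus strand) was at 3.47, 6.95 and 7.30 FPKM in the PBS samples and at 4.67, 7.57 and 8.61 FPKM after CTX. Its lowest samples were again PBS replicate 1 and CTX replicate 1. In limma the fold of CTX over PBS, on the log2(FPKM + 0.1) scale, was 1.07 for *Gdf9* (95% interval 0.601 to 1.91, adjusted p = 0.889) and 1.20 for *Bmp15* (0.668 to 2.14, adjusted p = 0.691). Neither change passed the test, and the direction of *Gdf9* turned when PBS replicate 1, CTX replicate 2 or CTX replicate 3 was left out (log2 change -0.21, -0.02 and -0.07). That of *Bmp15* turned without PBS replicate 1 (-0.081).

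The zona pellucida genes *Zp1*, *Zp2* and *Zp3* encode the glycoproteins of the oocyte's coat, with ZP2 and ZP3 as the repeating units of its filaments and ZP1 as the cross-link between filaments. *Zp3* (chr5:135980099-135988624, plus strand) was at 8.06, 16.7 and 14.6 FPKM in the PBS samples and at 12.4, 23.0 and 18.7 FPKM after CTX. *Zp2* (chr7:120126772-120145291, minus strand) was at 3.85, 8.11 and 8.77 FPKM in the PBS samples and at 6.24, 13.2 and 9.20 FPKM after CTX. *Zp1* (chr19:10914287-10920632, minus strand) was at 1.87, 5.23 and 5.30 FPKM in the PBS samples and at 3.87, 6.60 and 6.79 FPKM after CTX. For all 3 genes PBS replicate 1 was the lowest of the 6 samples, CTX replicate 1 was the lowest CTX sample, and CTX replicate 1 lay below PBS replicates 2 and 3. Mean FPKM were 13.1 ± 4.52 and 18.0 ± 5.30 for *Zp3* (PBS and CTX, SD, n = 3), with a limma fold of 1.39 (0.800 to 2.43, adjusted p = 0.445). The fold of *Zp2* was 1.40 (0.730 to 2.67, adjusted p = 0.506 in limma) and that of *Zp1* was 1.48 (0.709 to 3.09, adjusted p = 0.491 in limma). The 3 folds were close to one another, and none was larger than the spread between replicates.

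The transcription factors *Figla* and *Nobox*, which switch on oocyte genes early in follicle growth, had the lowest levels of the 10. *Nobox* (chr6:43303674-43309554, minus strand) was at 0.920, 1.52 and 1.78 FPKM in the PBS samples and at 0.932, 2.41 and 1.72 FPKM after CTX, with 33 to 86 reads per sample. Its replicate 1 samples were nearly equal between the groups, and its limma fold was 1.15 (0.603 to 2.19, adjusted p = 0.786). Its direction turned without PBS replicate 1 or CTX replicate 2 (log2 change -0.06 and -0.090). *Figla* (chr6:86016171-86020996, plus strand) was at 0.201, 0.0652 and 0.295 FPKM in the PBS samples and at 0.198, 0.674 and 0.134 FPKM after CTX. These values rest on 3, 1 and 4 reads and on 3, 10 and 2 reads, and the 95% Poisson interval reaches from 0.00165 to 0.364 FPKM for PBS replicate 2 and from 0.323 to 1.24 FPKM for CTX replicate 2. *Figla* lay below the mean of 0.5 FPKM that a gene needed to be tested, and an exact permutation test of its mean FPKM gave a two-sided p of 0.7, where 3 against 3 samples allow no p below 0.1.

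*Oosp1*, which encodes a secreted oocyte protein, was at 3.75, 9.15 and 8.45 FPKM in the PBS samples and at 5.22, 7.13 and 10.2 FPKM after CTX (chr19:11667460-11691150, minus strand). The highest sample was CTX replicate 3 and the lowest PBS replicate 1, and the limma fold was 1.09 (0.566 to 2.10, adjusted p = 0.876), with the direction turned without PBS replicate 1 or CTX replicate 3 (log2 change -0.28 and -0.12). *Nlrp5* encodes MATER, a maternal protein of the complex beneath the oocyte membrane that the early embryo needs. It was at 1.20, 3.34 and 2.75 FPKM in the PBS samples and at 2.30, 4.07 and 3.90 FPKM after CTX (chr7:23385889-23441922, plus strand). *Zar1*, a maternal gene needed at the start of embryonic development, was at 1.83, 4.36 and 4.24 FPKM in the PBS samples and at 2.56, 4.75 and 5.80 FPKM after CTX (chr5:72576806-72581254, minus strand). In both maternal genes replicate 1 was the lowest of each group and its CTX value lay inside the PBS range. The limma fold was 1.46 for *Nlrp5* (0.742 to 2.89, adjusted p = 0.470) and 1.27 for *Zar1* (0.624 to 2.58, adjusted p = 0.665), whose direction turned without PBS replicate 1 (log2 change -0.053).

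None of the 9 oocyte genes that were tested was called as changed by CTX, by limma on FPKM or by limma's voom on the rebuilt reads, and 0 of the 9 had an unadjusted p below 0.05 in either, where 19.6% of all genes tested had one in limma and 20.9% in voom. Over all genes tested, 0.802% were called higher and 0.159% lower after CTX. The 95% interval of the fold held both 1 and 2 for 8 of the 9, so these samples cannot tell no change from a 2-fold rise, and the upper bound of *Gdf9* was 1.91. The fitted log2 change was above 0 for 9 of the 9, where 48.6% of all genes tested lay above 0, and its median was 0.34 against -0.01 over all genes tested. This count rested on single samples, since 4 of the 9 lay above 0 without PBS replicate 1 (48.9% of all genes tested) and 7 of the 9 without CTX replicate 2 or without CTX replicate 3. The levels of the 9 genes varied together over the samples, so these signs are not 9 separate observations. In all 10 genes the samples of the groups overlapped, while 29.2% of all genes tested had groups that did not overlap. This count depended on CTX replicate 1. Without it, 6 genes (*Bmp15*, *Zp1*, *Zp2*, *Zp3*, *Nlrp5* and *Zar1*) had both remaining CTX samples above all PBS samples, as had 23.7% of all genes tested.

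**Figure D2:**
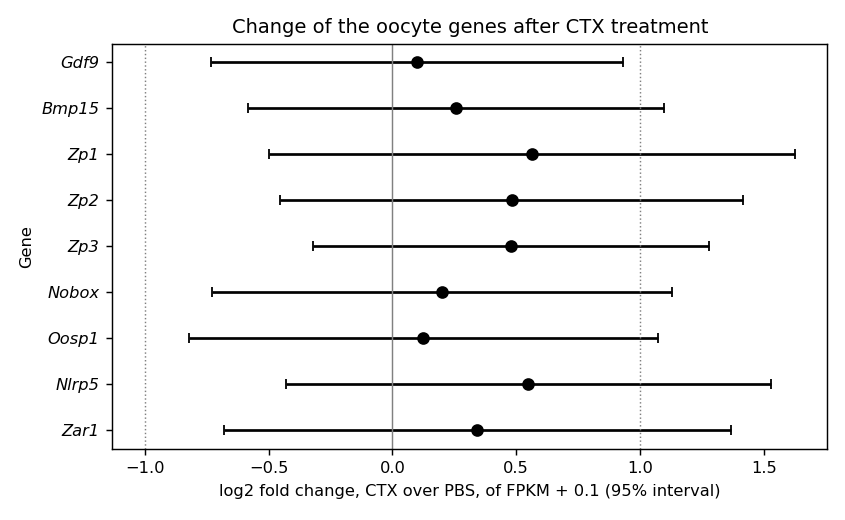
Change of the 9 tested oocyte genes, as log2 fold change of CTX over PBS of FPKM + 0.1 from limma (points) with its 95% interval (bars), and dotted lines at a 2-fold change. All 9 points lie between 0.10 and 0.56, and the bars of all 9 cross 0.

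The spread within each group was shared by the genes. In 9 of the 10, PBS replicate 1 was the lowest PBS sample and CTX replicate 1 the lowest CTX sample, a pattern that 12.2% of all genes tested showed and that was looked for after the values had been seen. *Figla* was the exception, with its lowest samples in PBS replicate 2 and CTX replicate 3 on 1 and 2 reads. The ratio of the lowest to the highest sample was 0.353 to 0.517 in the PBS group and 0.387 to 0.570 in the CTX group for the 9 genes, with medians of 0.439 and 0.522. Over all genes tested these medians were 0.869 and 0.782. Over the 8583 genes whose mean level lay in the range of the 9, between 1.55 and 19.5 FPKM, they were 0.877 and 0.806. The oocyte genes therefore varied more between samples of the same treatment than the usual gene of like level, and the labels do not say that samples with the same number shared animals or a day.

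**Figure D3:**
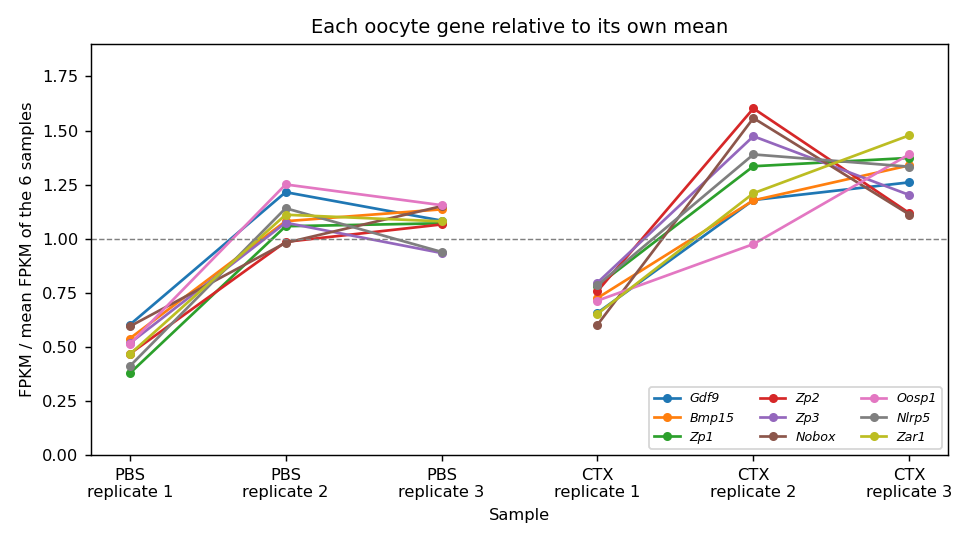
FPKM of the 9 oocyte genes with at least 10 reads in every sample, each divided by its mean over the 6 samples (dashed line at 1), in PBS replicates 1 to 3 and CTX replicates 1 to 3. Every line is lowest at replicate 1 within its group, and the lines fan out most at CTX replicate 2.

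Over the 6 samples, the pairwise Pearson correlation of log2(FPKM + 0.1) among the 9 genes had a median of 0.916 over 36 pairs and ranged from 0.734 to 0.996. Correlated with the mean of the other 8, *Bmp15* was the closest (0.984) and *Nobox* the farthest (0.884). All of these values come from the same 6 libraries and describe them.

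Summed over the 10 genes, oocyte FPKM were 36.9, 79.1 and 74.6 in PBS replicates 1, 2 and 3 and 51.2, 92.3 and 89.6 in CTX replicates 1, 2 and 3. Both replicate 1 samples lay below the other 4, and the sum of CTX replicate 1 lay inside the PBS range. The sum made up 0.0118% to 0.0276% of the FPKM of all genes. The means were 63.5 ± 23.2 and 77.7 ± 23.0 FPKM (SD, n = 3), a ratio of CTX to PBS of 1.22, while the highest and lowest samples differed 2.15-fold within the PBS group and 1.80-fold within the CTX group. The difference between treatments was smaller than the spread within either. Without PBS replicate 1 the ratio was 1.01, without CTX replicate 1 it was 1.43, and without CTX replicate 2, which stood apart in the whole transcriptome, it was 1.11.

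Counting error was small beside this spread. The 10 genes together received 78.0 RPM (reads scaled to the library's total) in PBS replicate 1 (95% Poisson interval 73.9 to 82.2), 172 in PBS replicate 2 (166 to 179) and 161 in PBS replicate 3 (155 to 167). They received 107 in CTX replicate 1 (102 to 111), 197 in CTX replicate 2 (190 to 203) and 194 in CTX replicate 3 (188 to 201). These intervals cover counting error only. Replicate 1 of each group lay outside the intervals of the other samples of its group, while the intervals of replicates 2 and 3 overlapped in both groups.

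The make-up of the oocyte reads was steadier than their amount. As a share of the reads of the 10 genes, *Gdf9* took 30.9%, 28.8% and 27.0% in the PBS samples and 24.0%, 23.6% and 26.0% after CTX. Every CTX share lay below every PBS share, with means of 28.9 ± 1.96% and 24.5 ± 1.28% (SD, n = 3). *Nlrp5* took 7.56%, 9.68% and 8.39% in the PBS samples and 10.3%, 9.98% and 9.85% after CTX, so that every CTX share lay above every PBS share. *Zp1* took 4.80%, 6.19% and 6.60% in the PBS samples and 7.06%, 6.61% and 7.01% after CTX, with the groups parted by 6.60% and 6.61% alone. For each of these 3 the two-sided exact permutation p was 0.1, the smallest that 3 against 3 samples allow, so none could pass 0.05. The shares of the other 7 genes overlapped between the groups. In level, an unlike measure, 29.2% of all genes tested had groups that did not overlap, and no such figure was worked out for shares. The shares of the 10 genes were examined after the levels had been seen, and they add up to the whole, so a lower share of 1 gene raises the others.

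**Figure D4:**
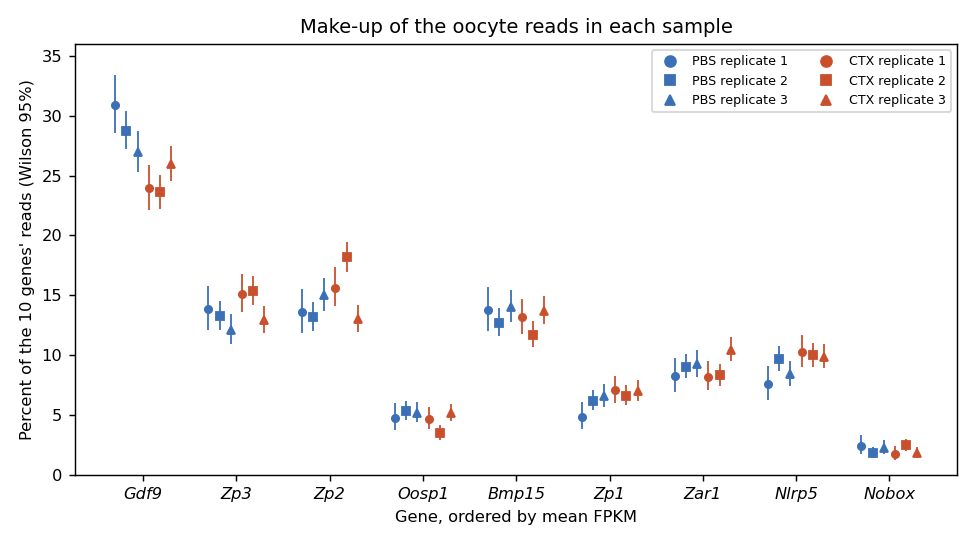
Share of the reads of the 10 oocyte genes taken by each of 9 genes (percent, with 95% Wilson intervals for counting error), ordered by mean FPKM, in the 3 PBS samples (blue) and the 3 CTX samples (red). *Gdf9* is the highest in every sample, at 27.0% to 30.9% in the PBS samples and 23.6% to 26.0% after CTX.

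The ratio of *Zp3* to *Gdf9* FPKM set these genes side by side without the other 8. It was 0.686, 0.707 and 0.689 in the PBS samples and 0.969, 0.999 and 0.762 after CTX. The PBS ratios were nearly equal, and all 3 CTX ratios lay above them. In PBS replicate 1 the ratio rested on 190 reads of *Zp3* and 425 of *Gdf9*, and its counting error was not worked out. Of the other genes, the ratios of *Zp1* and *Nlrp5* to *Gdf9* also lay wholly higher after CTX. Those of *Bmp15*, *Zp2*, *Figla*, *Nobox*, *Oosp1* and *Zar1* overlapped between the groups. In level, 29.2% of all genes tested had groups that did not overlap, and such a share was not worked out for ratios. All of these ratios are divided by the same *Gdf9* values, so they are not separate observations. The ratio of *Zp3* was chosen after the values had been seen and was not tested.

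A list of 44 other genes known from the oocyte was read in the same 6 libraries. Of these, 36 were tested, 0 were called by limma or by voom, and 2 had an unadjusted p below 0.05 in limma and 2 in voom, where 19.6% and 20.9% of all genes tested had one and 0.961% were called by limma. The fitted log2 change was above 0 for 32 of the 36, with a median of 0.29, and the summed level of the 44 was 91.5, 170 and 157 FPKM in the PBS samples and 115, 179 and 187 FPKM after CTX. Replicate 1 was the lowest sample of both groups in 29 of the 36. The CTX samples lay wholly above the PBS samples in 3 genes, as they did in 15% of all genes tested, and wholly below in 0.

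The genes of this list with the highest levels held maternal proteins and chromatin factors. *H1foo*, the linker histone of the oocyte, was at 8.60, 18.6 and 18.7 FPKM in the PBS samples and at 9.60, 15.6 and 19.0 FPKM after CTX. *Padi6*, needed for the cytoplasmic lattices of the oocyte, was at 6.54, 15.8 and 15.1 FPKM and at 11.7, 22.1 and 17.5 FPKM in the same order. *Bcl2l10*, a BCL-2 family gene of the oocyte, was at 7.96, 16.4 and 13.7 FPKM and at 9.18, 12.7 and 15.6 FPKM. In these 3 genes, replicate 1 was the lowest of each group, as in the 9. *Nlrp14* (mean 9.47 FPKM), the histone chaperone *Npm2* (mean 9.47 FPKM) and the maternal factor *Dppa3* (mean 6.62 FPKM) had correlations of 0.991, 0.882 and 0.937 with the mean profile of the 9 genes over the 6 samples.

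*Tle6* and *Taf4b* did not follow that profile. *Tle6*, a partner of MATER in the same maternal complex, was at 13.8, 18.8 and 18.7 FPKM in the PBS samples and at 14.2, 11.9 and 16.7 FPKM after CTX, with its lowest value in CTX replicate 2 and a correlation of 0.24. *Taf4b*, a subunit of the general transcription factor TFIID that is known from GCs as well as oocytes, was at 8.48, 8.10 and 8.63 FPKM in the PBS samples and at 10.7, 16.7 and 12.0 FPKM after CTX. Its PBS samples were nearly equal where the 10 oocyte genes differed about 2.15-fold in sum, its CTX samples all lay above them, and its correlation was 0.49 (limma log2 change 0.62, SE 0.163, adjusted p = 0.135). The other genes of the list under 0.5, named after their values were seen, were *Gpr3* (0.49) and *Dazl* (-0.54), both under 1 FPKM on average.

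**Figure D5:**
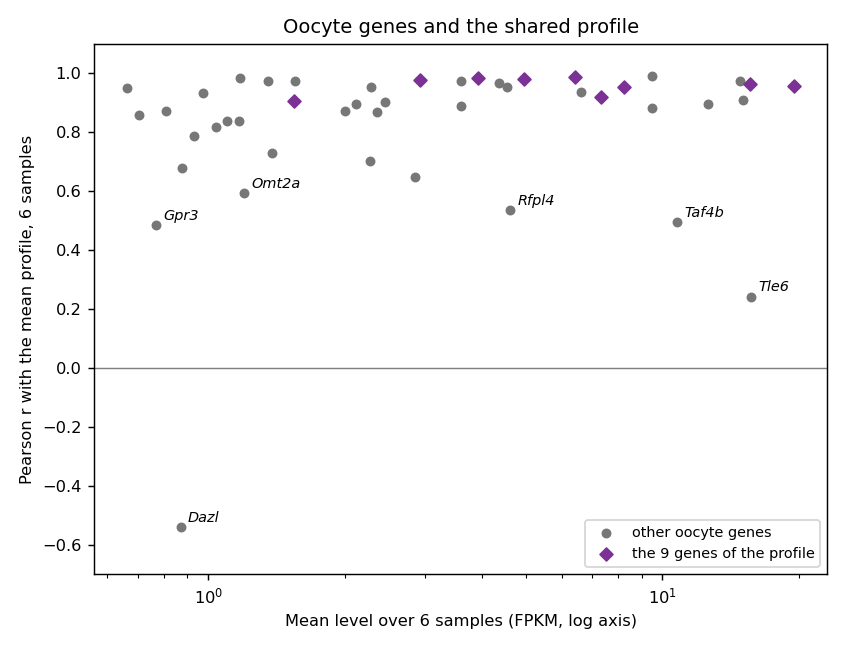
Pearson correlation over the 6 samples between each gene's log2(FPKM + 0.1) and the mean profile of the 9 oocyte genes, against the gene's mean level (FPKM, log axis), for the 36 other oocyte genes tested (grey circles) and the 9 genes that make up the profile (purple diamonds). Most grey circles lie near the diamonds, with a median of 0.877, and *Tle6*, *Taf4b*, *Gpr3* and *Dazl* lie below 0.5.

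Among all genes tested, the median correlation with the mean profile was -0.0236, and 0.871% of the genes reached 0.9, as did 14 of the 36 other oocyte genes. The 5 genes outside the 10 with the closest profile were *Ccno* (0.992), which encodes a cyclin, the F-box gene *Fbxw24* (0.992), *Gramd1c* (0.991), *Nlrp14* (0.991) and *Gm22478* (0.991). *Ccno* was at 2.15, 4.82 and 5.15 FPKM in the PBS samples and at 3.02, 5.58 and 5.99 FPKM after CTX. *Fbxw24* was at 3.02, 7.11 and 6.56 FPKM and at 4.75, 8.33 and 7.43 FPKM in the same order. Both repeated the pattern of a low replicate 1 in each group. The 100 genes with the highest correlation held 13 of the 36 listed oocyte genes.

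The receptors and SMAD proteins through which GCs receive GDF9 and BMP15 did not share the oocyte profile. All 12 genes of this list were tested, 0 were called, and the median log2 change was 0.05. Replicate 1 was the lowest sample of both groups in 0 of the 12, against 12.2% of all genes tested. In limma, 1 of the 12 had an unadjusted p below 0.05 (19.6% of all genes tested), and in voom 2 did (20.9%). The CTX samples lay wholly above the PBS samples in 1 of the 12, against 15% of all genes tested. That gene was *Smad9*, named after its values were seen (adjusted p = 0.181 in limma). *Tgfbr1*, a type I receptor of the TGF-β family, was at 51.7, 46.3 and 44.5 FPKM in the PBS samples and at 47.7, 26.8 and 33.0 FPKM after CTX (adjusted p = 0.287 in limma). *Bmpr2*, the type II receptor that binds both ligands, was at 39.7, 35.2 and 32.6 FPKM in the PBS samples and at 34.3, 35.7 and 33.7 FPKM after CTX. The level of *Bmpr2* was nearly even over samples in which its ligands were not.

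Genes that oocyte factors are known to raise in the cumulus GCs next to the oocyte, for glycolysis and cholesterol synthesis among others, were mostly lower after CTX without passing the call. Of 16 tested, 0 were called by limma or by voom, 8 had an unadjusted p below 0.05 in limma (19.6% of all genes tested) and 10 in voom (20.9%), and the median log2 change was -0.54. The CTX samples lay wholly below the PBS samples in 11 of the 16, against 14.1% of all genes tested, and 1 of the 16 had replicate 1 as its lowest sample in both groups. General GC markers lay to the same side, with the CTX samples wholly below the PBS samples in 7 of 10 and a median log2 change of -0.27, and the difference between the lists was not tested. The 16 cumulus genes summed to 1703 to 1853 FPKM in the PBS samples and to 1410, 1097 and 1249 FPKM after CTX. The lowest sum was thus in CTX replicate 2, which stood apart in the whole transcriptome. Their median ratio of lowest to highest sample was 0.929 in PBS and 0.542 after CTX. Over all genes tested it was 0.869 and 0.782. *Ldha*, lactate dehydrogenase A, was at 319, 307 and 343 FPKM in the PBS samples and at 216, 191 and 198 FPKM after CTX, with a limma adjusted p of 0.0192 and a log2 change of -0.68, which is under 2-fold. *Aldoa*, the glycolytic aldolase, was at 482, 474 and 524 FPKM in the PBS samples and at 396, 264 and 337 FPKM after CTX (log2 change -0.59, adjusted p = 0.136 in limma). PBS replicate 1 did not stand out in either gene, in contrast to the oocyte genes. *Amh*, anti-Müllerian hormone, was the gene of this list whose CTX samples all lay above the PBS samples (named after its values were seen), at 48.4, 48.8 and 51.1 FPKM against 54.3, 179 and 85.5 FPKM (adjusted p = 0.269 in limma).

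The 4 markers of mural GCs, which line the follicle wall away from the oocyte, differed most in CTX replicate 2. Their summed level was 838 to 862 FPKM in the PBS samples and 1005, 104 and 670 FPKM after CTX. Of the 4, 0 were called by limma or voom. An unadjusted p below 0.05 was found for 1 in limma and 2 in voom (19.6% and 20.9% of all genes tested). *Cyp11a1*, the enzyme that starts steroid synthesis, was at 564, 544 and 553 FPKM in the PBS samples and at 727, 14.4 and 486 FPKM after CTX. *Nppc*, the peptide by which mural GCs hold the oocyte in meiotic arrest, was at 166, 176 and 195 FPKM in the PBS samples and at 144, 87.5 and 129 FPKM after CTX. CTX replicate 2 thus had the lowest mural sum and the highest oocyte sum of the 6 samples, while PBS replicate 1, with the lowest oocyte sum, had a mural sum like that of the other PBS samples.

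Of the 4 genes by which oocyte and GCs touch each other, 2 had replicate 1 as the lowest sample of both groups. Over all genes tested, 12.2% showed this pattern. The 2 genes were *Gja4* and, named after its values were seen, *Kit*. *Gja4*, the connexin 37 of the oocyte side of the gap junction, was at 1.37, 3.92 and 2.71 FPKM in the PBS samples and at 2.39, 2.84 and 3.58 FPKM after CTX, lowest in replicate 1 of both groups as the oocyte genes were. *Gja1*, the connexin 43 of GCs, was at 575, 543 and 566 FPKM in the PBS samples and at 503, 508 and 426 FPKM after CTX. PBS replicate 1, with the lowest level of 9 of the 10 oocyte genes, had a *Gja1* level like that of the other PBS samples. None of the 4 genes of this list was called by limma or voom. An unadjusted p below 0.05 was found for 0 in limma and 1 in voom (19.6% and 20.9% of all genes tested).

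The summed markers of other cell types were nearly even over the PBS samples, except for the erythroid ones, which were lowest in PBS replicate 1 (319, 438 and 454 FPKM) and lowest after CTX in replicate 2. The summed level of the 10 theca and stroma markers was 66.0 to 69.4 FPKM in the PBS samples and 33.6 to 95.8 FPKM after CTX, that of 8 endothelial markers 7.79 to 8.33 and 3.30 to 7.23 FPKM, and that of 6 surface epithelium markers 7.16 to 7.73 and 3.86 to 9.43 FPKM. The 9 leukocyte markers summed to 23.9 to 26.6 FPKM in the PBS samples and 28.7 to 67.8 FPKM after CTX, a sum made up mostly of *Lyz2*. Of the 7 leukocyte markers tested, 3 had CTX samples wholly above the PBS samples, against 15% of all genes tested. The 5 erythroid markers summed to 319 to 454 FPKM in the PBS samples and 138 to 497 FPKM after CTX. The 10 GC markers summed to 12244 to 13496 FPKM in the PBS samples and 10926 to 11694 FPKM after CTX, a sum made up mostly of *Inha*. None of the 10 was called by limma or voom. An unadjusted p below 0.05 was found for 3 in limma and 6 in voom (19.6% and 20.9% of all genes tested). Named after its values were seen, *Cyp19a1*, the aromatase of GCs, was at 60.0, 59.2 and 62.4 FPKM in the PBS samples and at 47.6, 6.61 and 32.5 FPKM after CTX, with its lowest value in CTX replicate 2 (adjusted p = 0.291 in limma). No gene of these lists was at 0 in all samples. Of the leading markers, *Cyp17a1* (theca) was at 1.25 FPKM and *Cdh5* (endothelium) at 1.25 FPKM in CTX replicate 2, their lowest values, and *Lyz2* (leukocytes) was there at 45.8 FPKM, its highest. *Lgals7* (surface epithelium) was at 2.07 to 3.57 FPKM over the 6 samples, and *Hba-a1* (red blood cells) at 79.8 to 298 FPKM. The called gene of these lists was *Acta2*, smooth muscle actin, which rose from 8.06 to 17.3 FPKM (limma log2 change 1.08, adjusted p = 0.0166). The part of these cell types in the level of the oocyte genes was not tested.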

How the data were processed

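RNA-seq of GCs was measured in 3 PBS and 3 CTX samples, grouped by their labels, each pooling 3 mice, and p-values measure the spread between these pools. The authors deposited FPKM per gene, already scaled between samples, on mm10 (GRCm38). The submitters' processing notes name CASAVA 1.8, fastp, HISAT2 2.0.5, featureCounts 1.5.0-p3 and DESeq2 1.20.0, and strandedness is not given in the sources used here. Of the 10 oocyte genes, only *Nlrp5* overlaps another gene, and they share 0 exon bases. The authors' mean signal of each group was used to check the rebuilt reads, and the deposited log2 fold change, p-value and adjusted p of the authors' comparison were not used. The number of per-sample columns left unused was 0.

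FPKM multiplied by gene length and divided by the value of 1 read in that sample gave whole reads within 0.01 for 100% of values. The 14463 of 54532 genes whose FPKM averaged 0.5 or more were fitted as log2(FPKM + 0.1) with limma 3.58.1 (lmFit, eBayes with trend) in R 4.3.3, with Benjamini-Hochberg adjustment over all of them. The pseudocount understates folds of low genes. A gene was called at an adjusted p below 0.05 and more than 2-fold, the threshold of the study's methods. At that threshold the paper reports more changed genes from its own comparison than the 139 called by limma here. Python 3.11.15 (SciPy 1.17.1, NumPy 2.4.6, pandas 2.3.3, matplotlib 3.10.9) served for tables and figures. The fit was tested on simulated data. Counting intervals are exact Poisson or Wilson 95% intervals and cover counting error only. Of the listed symbols, 1 (*Aldoa*) had 2 rows, and the row at its RefSeq start was read.

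The 10 genes and the 12 lists (137 genes) were chosen with earlier results of these data known. Named were the 10 genes, the 8 other oocyte genes with the highest mean FPKM, the 2 highest of each receptor, cumulus, mural and partner list, the highest of each marker list, the 5 genes with the closest profile, and called list genes. Others are marked as named after their values were seen. Alternative settings were a pseudocount of 1 or 0.01, a filter at an average of 5 FPKM or none, scaling to total reads, quantile normalization, a replicate block, arrayWeights, eBayes without trend, voom on the rebuilt reads, and each sample left out.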

Additional observations from a re-analysis of the deposited data

How the results depend on the processing

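None of the 9 tested oocyte genes was called under any of the 16 alternatives, and the lowest adjusted p in limma over them was 0.0619, for *Zar1* with arrayWeights. Of 140 values of single oocyte genes under the alternatives, 131 kept their direction and their side of the threshold and 9 turned their direction, all with a sample left out, which removes 1 of 3 values of a group. Leaving out PBS replicate 1, the log2 change was -0.21 for *Gdf9*, -0.081 for *Bmp15*, -0.06 for *Nobox*, -0.28 for *Oosp1* and -0.053 for *Zar1*. Leaving out CTX replicate 2, it was -0.02 for *Gdf9* and -0.090 for *Nobox*, and leaving out CTX replicate 3 it was -0.07 for *Gdf9* and -0.12 for *Oosp1*. With a sample left out, the highest values of these 5 genes came without CTX replicate 1, at 0.39 for *Gdf9*, 0.52 for *Bmp15*, 0.55 for *Nobox*, 0.36 for *Oosp1* and 0.68 for *Zar1*. The number of oocyte genes whose groups did not overlap ranged from 0 to 6 with a sample left out (6 without CTX replicate 1). Of all genes tested, 139 were called, 657 with arrayWeights and 58 to 205 with a sample left out (67, 66 and 58 without PBS replicates 1, 2 and 3, and 205, 199 and 84 without CTX replicates 1, 2 and 3). Of the other oocyte genes, 2 were called with arrayWeights (*Gpr3* and *Pou5f1*), and of the receptor, cumulus, mural and partner genes 1 (*Cd34*) with arrayWeights and 0 to 1 with a sample left out (*Eno1*, without CTX replicate 1). These 4 genes are named after their values were seen, and the cause of these changes was not tested.

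With a replicate block, 50 genes were called and 0 of the 9 oocyte genes, and their median standard error was 0.158 in place of 0.388 on the log2 scale (0.129 in place of 0.133 over all genes tested). The lowest adjusted p among them was then that of *Zp3* (log2 change 0.48, SE 0.0856, adjusted p = 0.165 in limma). Unadjusted limma p under the block was 0.0037 for *Zp3*, 0.023 for *Nlrp5*, 0.027 for *Zp1*, 0.034 for *Zp2* and 0.043 for *Zar1*. It was 0.055 for *Bmp15*, 0.30 for *Gdf9*, 0.39 for *Nobox* and 0.53 for *Oosp1*. The unadjusted p of these genes thus depended on whether the replicate numbers entered the fit. The numbers name samples of different mice, and the labels do not give pairs, so the samples were not treated as pairs. Over all genes, the deviations of same-numbered samples correlated at 0.056, 0.024 and 0.006. PBS replicate 2 correlated better with CTX replicate 3 (0.059) than with its own number. These correlations cannot show whether same-numbered samples shared a step that touched the oocyte genes alone, which was not tested. Depth limits *Figla*, at 1 to 10 reads per sample, and 3 pools per group limit the other 9.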

Other observations

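Some genes with the profile of the oocyte genes have levels far above theirs or belong to no oocyte list. *Rps27a*, which encodes a fusion of ubiquitin and a ribosomal protein, had the highest level among the 20 closest, named here after its values were seen. It was at 101, 204 and 198 FPKM in PBS replicates 1, 2 and 3 and at 135, 291 and 271 FPKM in CTX replicates 1, 2 and 3, with a correlation of 0.983 with the mean profile of the 9 oocyte genes over the 6 samples. Its highest sample was CTX replicate 2 and its lowest PBS replicate 1, as for the summed oocyte genes. *Rps27a* has near-identical copies in the genome, so the reads assigned to it are uncertain. *Kpna7*, an importin known from oocytes and likewise named after its values were seen, was at 0.644 to 1.60 FPKM in the PBS samples and at 1.09 to 1.94 FPKM after CTX (correlation 0.989). It lay lowest in replicate 1 of both groups.

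The small RNA gene *Gm22478* (correlation 0.991) was at 2.55, 8.15 and 6.81 FPKM in the PBS samples and at 3.94, 8.42 and 8.70 FPKM after CTX. *Gramd1c* (correlation 0.991), a lipid transfer protein gene, was at 0.581, 0.859 and 0.910 FPKM and at 0.726, 0.966 and 0.990 FPKM in the same order, a narrower range than that of the oocyte genes. The minimum of 10 reads in every sample was set for the genes of the profile and not for the genes ranked against it. A close correlation over 6 samples describes the order and shape of the values and not the cell they come from.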
